A study of Mus musculus with 6 samples.

Results

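The 10 genes described here carry the LIF-STAT3 and BMP-ID signals of mouse pluripotent cells: Lifr, Il6st, Jak1, Stat3, Socs3, Bmp4, Bmpr1a, Id1, Id2 and Id3. They were taken by symbol (written there in capitals) from a deposited table of 18388 genes, and all 10 were found there and had a mean above the level needed for testing, as did 11876 genes in all. Expression was measured by bulk RNA-seq of morula-like aggregates, clusters of mouse expanded pluripotent stem cells that model the embryo at compaction. There were 3 libraries from aggregates treated with PFOA (perfluorooctanoic acid, a persistent fluorinated surfactant) and 3 from aggregates given the vehicle DMSO. All 6 share the same cell type and a medium named N2B27LCDM, in whose usual recipe the L stands for LIF, before an induction medium whose composition is not given in the sources used here. The PFOA dose, the length of exposure, the cell line and whether replicates are separate cultures are not given either, so the spread behind each p-value is that among the libraries and may be technical only.

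LIF is a cytokine that binds the receptor LIFR, which pairs with the shared signalling chain gp130, encoded by Il6st. The kinase JAK1, bound to gp130, phosphorylates STAT3, which enters the nucleus and turns on genes of naive pluripotency together with Socs3, whose product binds the receptor complex and limits the signal. BMP4 acts through type I receptors such as BMPR1A, whose signal reaches the Id genes through SMAD proteins. ID proteins have a helix-loop-helix but no DNA-binding region, and they hold E proteins away from DNA. In serum-free culture of mouse embryonic stem cells, LIF and BMP together sustain self-renewal and restrain neural differentiation.

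Levels are in FPKM, fragment counts divided by gene length and library size, which gives a level per length. Comparisons of levels between genes depend on the length used and on the bias by length described below. FPKM summed to between 585739 and 630644 in PFOA libraries and between 641975 and 657239 in DMSO libraries, with 16823 to 16913 genes above 0 per library. Sequencing depth is unknown. Across genes, pairs of libraries had a Spearman's rho of 0.990 to 0.991 within PFOA, 0.989 to 0.990 within DMSO and 0.988 to 0.991 between the groups. Pluripotency markers were high in all 6 libraries (9 of 9 with a mean of at least 1 FPKM). Their summed level was 4039 to 4524 FPKM in PFOA and 4668 to 4879 FPKM in DMSO. Much of that gap was Dppa5a, at 1672.13, 2124.80 and 2057.79 FPKM in PFOA and 2210.37, 2303.56 and 2202.94 FPKM in DMSO. The other 8 markers, a split chosen after the values were seen, summed to 2366.46, 2399.41 and 2457.86 FPKM in PFOA and 2457.80, 2575.62 and 2469.35 FPKM in DMSO, which overlapped by a small margin. Pou5f1 and Nanog were lower, and Sall4 and Esrrb higher, in every PFOA library than in every DMSO library. Of all genes tested, 13.7% were lower in this way and 13.5% higher. The longest transcript has 1362 nt for Pou5f1, 2211 nt for Nanog, 5073 nt for Sall4 and 4300 nt for Esrrb, and differences went with length as described below. For trophectoderm markers the sum was 478 to 549 FPKM in PFOA and 495 to 566 FPKM in DMSO, with Elf5 at or under 0.10 FPKM. Most of that sum came from the keratin genes Krt8 and Krt18, with means of 215 and 271 FPKM over the 6 libraries. The next highest was Krt7, with a mean of 10.9 FPKM, and Cdx2, Eomes and Gata3 were lower than Krt7. Fibroblast markers summed to 19.9 to 21.4 FPKM in PFOA and 21.9 to 26.8 FPKM in DMSO, also without overlap. Among them Twist2 was at 1.19, 1.06 and 1.07 FPKM in PFOA and 2.07, 2.14 and 1.64 FPKM in DMSO, and Dcn at 6.57, 6.39 and 5.77 FPKM in PFOA and 8.5, 6.77 and 7.51 FPKM in DMSO. Fbn1 went the other way, at 1.05, 0.87 and 0.92 FPKM in PFOA and 0.75, 0.84 and 0.78 FPKM in DMSO. The remaining fibroblast markers overlapped between the groups, with Col1a1 at a mean of 2.13 FPKM in PFOA and 2.17 FPKM in DMSO. Primitive endoderm markers summed to 8.05 to 8.46 FPKM in PFOA and 7.50 to 8.62 FPKM in DMSO, and mesoderm markers to 8.62 to 9.35 FPKM in PFOA and 8.65 to 10.6 FPKM in DMSO. A mean under 1 FPKM was found for 3 of 9 fibroblast, 5 of 7 primitive endoderm and 4 of 6 mesoderm markers. The part of cell makeup in the results below was not tested, and in bulk RNA fewer cells of a type and less RNA per cell cannot be told apart.

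No member (0 of 10) passed the test between PFOA and DMSO aggregates. With 3 libraries per group, the lack of a call does not show that levels were equal. In limma, with Benjamini-Hochberg adjustment over all 11876 genes, 0.00842% of genes were called in either direction, a single gene, Bri3, which was lower in PFOA. An unadjusted p under 0.05 was reached by 3 of 10 members, against 21.1% of all genes. They were 2 members higher in PFOA, Lifr and Jak1, against 8.56% of all genes, and 1 lower, Id1, against 12.5% of all genes. Every PFOA library was above every DMSO library for 3 members, Lifr, Jak1 and Bmpr1a, where 13.5% of all genes do so, and below for 1 member, Id1, where 13.7% do so. On the log2 scale the differences ran from 0.17 for Lifr to −0.24 for Id1. The receptors, the kinase and STAT3 had the higher mean in PFOA, and Socs3, Bmp4 and the 3 Id genes the lower mean, with the sign of Il6st, Stat3, Bmp4 and Id3 turning under at least 1 alternative.

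**Figure D1:**
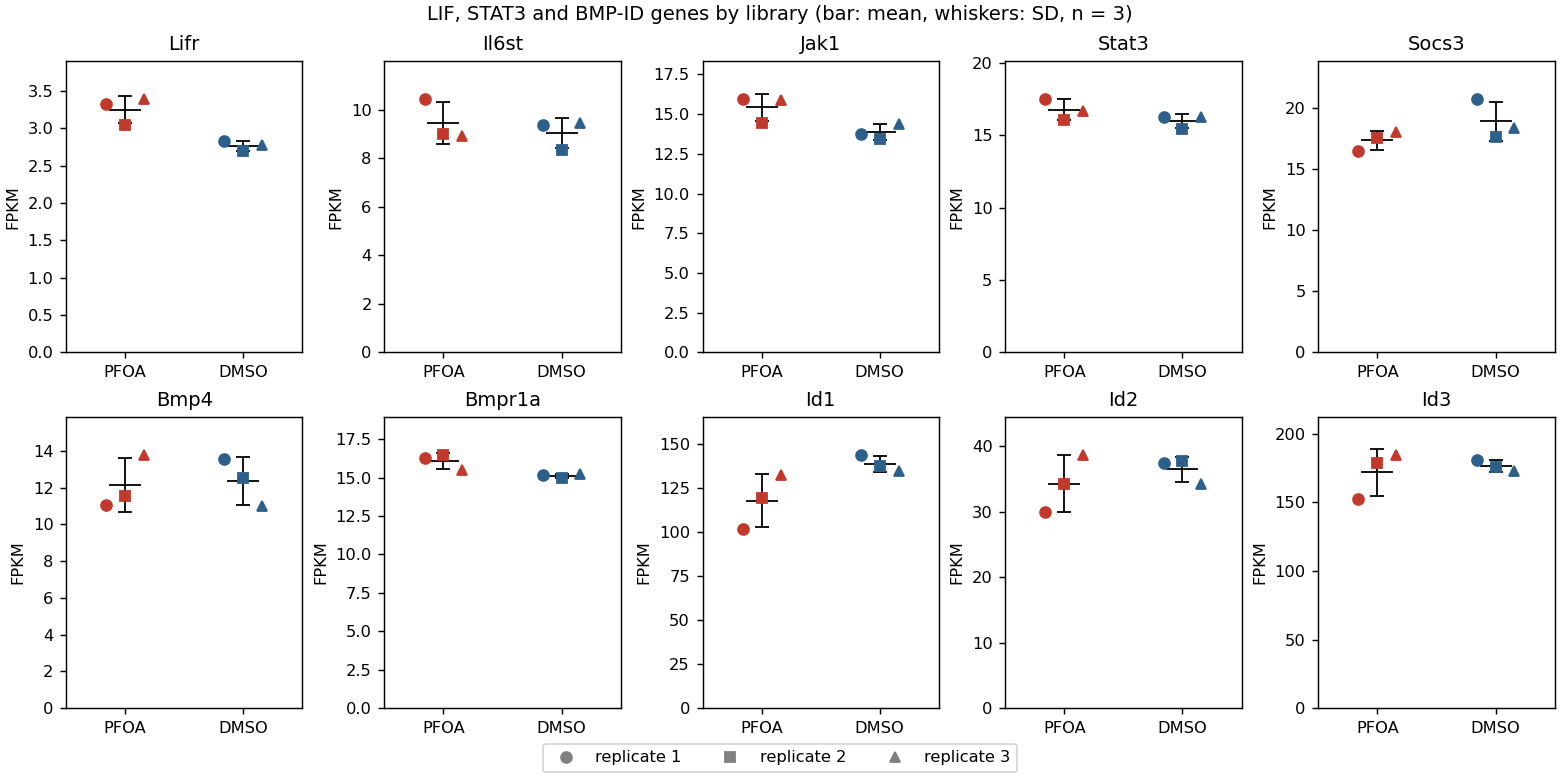
FPKM of each of the 10 genes (vertical axes, from 0) in the 3 PFOA libraries (red, left) and the 3 DMSO libraries (blue, right), with marker shapes for the replicate number, bars for means and whiskers for SD. Lifr, Jak1 and Bmpr1a are higher in each PFOA library than in each DMSO library, Id1 is lower in each, and the other 6 genes overlap.

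Lifr, the receptor chain that binds LIF, was the least expressed member, above 17.3% of tested genes. It was at 3.32, 3.04 and 3.39 FPKM in PFOA libraries 1 to 3, against 2.83, 2.70 and 2.77 FPKM in DMSO libraries 1 to 3. The lowest PFOA library was thus above the highest DMSO library. The log2 fold change was 0.17 (SE 0.065, 95% confidence interval 0.026 to 0.32, limma adjusted p = 0.188).

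Il6st encodes gp130, the chain that LIFR shares with the receptors of related cytokines. Its level was 10.43, 8.99 and 8.93 FPKM in PFOA and 9.38, 8.33 and 9.43 FPKM in DMSO. Only PFOA 1 stood above the DMSO range, and the groups overlapped. The log2 fold change was 0.056 (95% confidence interval −0.11 to 0.22, limma adjusted p = 0.691), and it was −0.011 without PFOA 1. Per length, Il6st was the more abundant of the receptor pair, with a ratio of Lifr to Il6st of 0.318, 0.338 and 0.380 in PFOA and 0.302, 0.324 and 0.294 in DMSO, which overlapped.

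Jak1, the kinase on gp130, was at 15.94, 14.45 and 15.89 FPKM in PFOA and 13.77, 13.44 and 14.39 FPKM in DMSO. PFOA 1 and 3 were well above the DMSO libraries, while PFOA 2 exceeded DMSO 3 by a small margin. The mean was 15.4 ± 0.85 FPKM in PFOA and 13.9 ± 0.48 FPKM in DMSO (SD, n = 3 each; log2 fold change 0.14, SE 0.053, 95% confidence interval 0.022 to 0.26, limma adjusted p = 0.186). Exons of Jak1 overlap those of Raver2 on the opposite strand in the GENCODE M21 annotation. The strand setting of the counting is not given in the sources used here, so reads of such overlaps cannot be told apart. Raver2 itself was at 8.84 ± 0.86 FPKM in PFOA and 8.11 ± 0.74 FPKM in DMSO.

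Stat3, the transcription factor that JAK1 activates, was at 17.51, 16.09 and 16.71 FPKM in PFOA and 16.30, 15.47 and 16.25 FPKM in DMSO. The 2 groups overlapped through PFOA 2. Its log2 fold change was 0.063 with a 95% confidence interval of −0.045 to 0.17 (limma adjusted p = 0.473), which spans a difference of −3.1% to 12.6% on the scale of FPKM + 1. It was 0.033 without PFOA 1 and 0.040 without DMSO 2. A phosphorylated or nuclear pool of STAT3 is not measured by RNA-seq. Stat5a overlaps Stat3 on the opposite strand and was low, at 1.33 ± 0.087 FPKM in PFOA and 1.33 ± 0.056 FPKM in DMSO.

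Socs3, the feedback inhibitor that STAT3 induces, was at 16.46, 17.53 and 18.04 FPKM in PFOA and 20.73, 17.64 and 18.39 FPKM in DMSO. DMSO 1 was the highest library, and PFOA 3 lay above DMSO 2, so the groups overlapped. The log2 fold change was −0.12 (SE 0.064, 95% confidence interval −0.26 to 0.030, limma adjusted p = 0.331), and it was −0.053 without DMSO 1. Relative to Stat3 in the same library, Socs3 was at 0.940, 1.09 and 1.08 in PFOA and 1.27, 1.14 and 1.13 in DMSO. Each PFOA ratio was below each DMSO ratio. The ratio was chosen after the values were seen and sets a transcript of 2552 nt against one of 6042 nt.

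Bmp4, the ligand of the BMP arm, varied widely within both groups. It was at 11.05, 11.53 and 13.79 FPKM in PFOA and 13.58, 12.53 and 10.98 FPKM in DMSO, with a coefficient of variation of 12.1% and 10.6%. Both groups covered nearly the same range. Its log2 fold change of −0.027 (95% confidence interval −0.24 to 0.19, limma adjusted p = 0.892) became 0.031 without PFOA 1, 0.0032 without PFOA 2 and 0.038 without DMSO 1.

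Bmpr1a, the type I receptor for BMP4, was at 16.26, 16.49 and 15.53 FPKM in PFOA and 15.14, 14.95 and 15.24 FPKM in DMSO. The PFOA libraries had a coefficient of variation of 3.11%, the DMSO libraries lay closer together, and every PFOA library was above them. The log2 fold change was 0.085 (SE 0.043, 95% confidence interval −0.012 to 0.18, limma adjusted p = 0.291). Annotated antisense transcripts of predicted genes overlap exons of Bmpr1a and of Bmp4.

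The promoters of Id3 and Id2 are shown because these genes are direct targets of the BMP arm, and that of Socs3 because it is a direct target of the STAT3 arm. The windows run from 250 bases before to 50 bases after the annotated start, 5′ to 3′ on the gene's strand, as RefSeq gives them on GRCm38.p6. Windows matched 9 of the 10 members, and one for Id1 was not used here. Id3 is at chr4:136143572-136143871 on the plus strand, Id2 at chr12:25096043-25096342 on the minus strand and Socs3 at chr11:117969317-117969616 on the minus strand. That build differs from GRCm39, which the submitters' processing notes name. Capitals mark matches to CAGAC and GGCGCC, short motifs bound by SMAD proteins, and to TTCNNNGAA, the palindrome bound by STAT dimers, searched on both strands.
Id3: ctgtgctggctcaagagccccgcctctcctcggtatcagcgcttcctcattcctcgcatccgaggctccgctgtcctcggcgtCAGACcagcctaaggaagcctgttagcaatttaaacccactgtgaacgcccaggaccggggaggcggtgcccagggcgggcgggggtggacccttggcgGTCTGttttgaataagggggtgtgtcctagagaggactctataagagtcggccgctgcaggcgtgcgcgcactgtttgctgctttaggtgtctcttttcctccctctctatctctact
Id2: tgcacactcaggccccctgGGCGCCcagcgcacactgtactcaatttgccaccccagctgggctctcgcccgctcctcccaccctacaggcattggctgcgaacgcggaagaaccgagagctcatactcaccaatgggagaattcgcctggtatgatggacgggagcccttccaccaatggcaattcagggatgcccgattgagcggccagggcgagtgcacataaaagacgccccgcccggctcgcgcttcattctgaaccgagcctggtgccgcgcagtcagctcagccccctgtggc
Socs3: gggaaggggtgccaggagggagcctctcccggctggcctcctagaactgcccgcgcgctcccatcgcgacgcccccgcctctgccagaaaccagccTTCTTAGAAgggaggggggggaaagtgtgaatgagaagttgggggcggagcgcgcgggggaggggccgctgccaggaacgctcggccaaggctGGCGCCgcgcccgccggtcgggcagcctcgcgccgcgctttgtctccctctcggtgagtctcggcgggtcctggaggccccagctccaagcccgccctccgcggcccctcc
The Id3 window held 2 matches to CAGAC or its reverse complement, whose first bases lie 167 and 68 bases before the start. Id2 had 1 match to GGCGCC, 231 bases before the start. The Socs3 window had 1 match to TTCNNNGAA, 154 bases before the start, and 1 to GGCGCC, 61 bases before it. No matches overlapped one another. GGCGCC was also found in the windows of Lifr, Jak1 and Bmpr1a, and CAGAC in those of Lifr. Among 32851 promoter windows of the same length, CAGAC is present in 49.6%, GGCGCC in 11.9% and TTCNNNGAA in 8.30%. The members' windows with GGCGCC had a GC content from 63.3% (Id2) to 81.3% (Lifr), where the median over all promoter windows was 52.7%. The part of GC content in these matches was not tested. A match describes these letters only and is not a measured binding site.

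The Id genes were the most abundant members. Id1 was at 101.81, 119.33 and 132.28 FPKM in PFOA and 143.79, 137.54 and 134.61 FPKM in DMSO. PFOA 1 was far below the rest, and PFOA 3 was just under the lowest DMSO library. The mean was 118 ± 15 FPKM in PFOA and 139 ± 4.7 FPKM in DMSO (SD, n = 3 each; log2 fold change −0.24, SE 0.083, 95% confidence interval −0.43 to −0.050, limma adjusted p = 0.170). Leaving out PFOA 1 gave −0.14 and leaving out PFOA 3 gave −0.33.

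Id2 was at 30.01, 34.20 and 38.70 FPKM in PFOA and 37.48, 37.67 and 34.26 FPKM in DMSO. PFOA 1 was the lowest library and PFOA 3 the highest, so the PFOA libraries spanned the DMSO range. The log2 fold change was −0.092 (95% confidence interval −0.28 to 0.099, limma adjusted p = 0.553) and −0.0021 without PFOA 1.

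Id3, the most abundant member, was above 95.7% of tested genes. It was at 152.40, 178.76 and 184.75 FPKM in PFOA and 180.91, 175.74 and 172.91 FPKM in DMSO. Here too PFOA 1 was low, while PFOA 2 lay within the DMSO range and PFOA 3 above it. The log2 fold change was −0.042 (95% confidence interval −0.20 to 0.11, limma adjusted p = 0.754), and it was 0.042 without PFOA 1. Summed over the 3 Id genes, the level was 284, 332 and 356 FPKM in PFOA and 362, 351 and 342 FPKM in DMSO.

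Among the 3 Id members, Id1 was lower in PFOA relative to Id2 and to Id3, and no ratio to Id4 was taken. The ratio of Id1 to Id3 was 0.668, 0.668 and 0.716 in PFOA and 0.795, 0.783 and 0.778 in DMSO. All 3 PFOA libraries were below all 3 DMSO libraries, with means of 0.684 ± 0.028 in PFOA and 0.785 ± 0.0085 in DMSO (SD, n = 3 each). The longest transcript has 1160 nt for Id1, 1278 nt for Id3 and 1969 nt for Id2, and the part of length in these ratios was not tested. Against Id2, Id1 was at 3.39, 3.49 and 3.42 in PFOA and 3.84, 3.65 and 3.93 in DMSO, which did not overlap either. The ratio of Id2 to Id3 did overlap, at 0.197, 0.191 and 0.209 in PFOA and 0.207, 0.214 and 0.198 in DMSO. Because the ratios were chosen after the values were seen, they are given without a test.

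**Figure D2:**
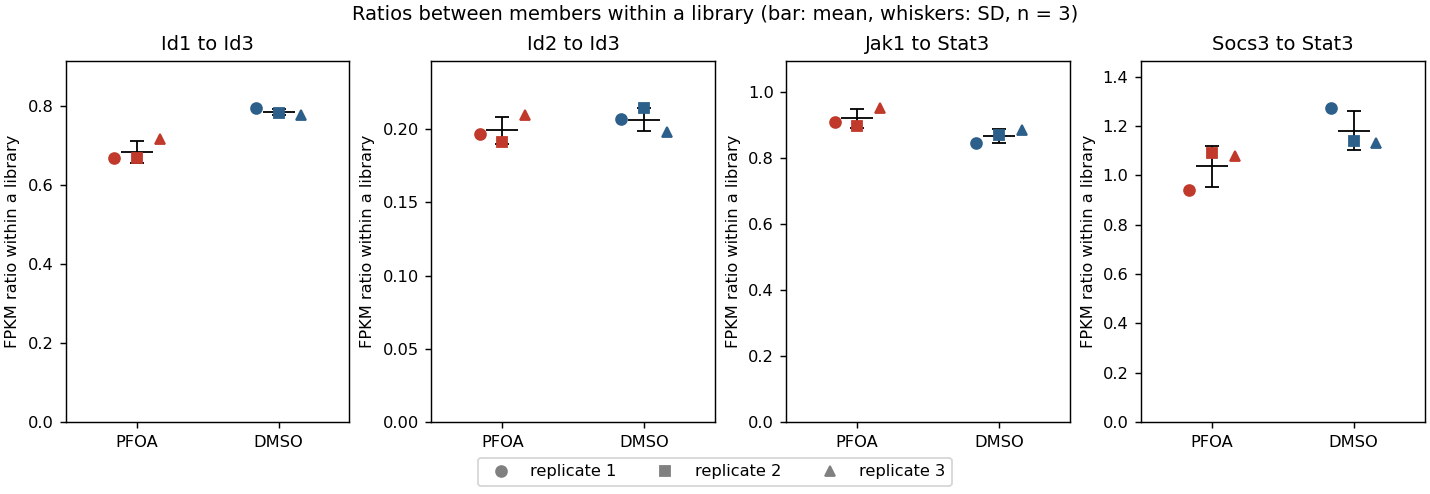
Ratio of FPKM between 2 members within each library (vertical axes, from 0) for the 3 PFOA libraries (red, left) and the 3 DMSO libraries (blue, right), with bars for means and whiskers for SD. The ratio of Id1 to Id3 is 0.668 to 0.716 in PFOA and 0.778 to 0.795 in DMSO, while Id2 to Id3 overlaps between the groups.

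In order of mean level over the 6 libraries, the members ran from Id3 (174 FPKM) through Id1 (128), Id2 (35.4), Socs3 (18.1), Stat3 (16.4), Bmpr1a (15.6), Jak1 (14.6), Bmp4 (12.2) and Il6st (9.25) to Lifr (3.01). The 3 Id genes, Bmp4, Il6st and Lifr kept their places in every library. Socs3, Stat3, Bmpr1a and Jak1 formed a middle group whose neighbours in the order overlapped in PFOA but not in DMSO, each above the next in 5 of 6 libraries. The ranges of Jak1 and Bmp4 overlapped in DMSO and not in PFOA, with Jak1 above Bmp4 in each of the 6 libraries.

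The sign of each difference went with the length of the transcript, and the part of length in these results was not tested beyond the values that follow. The 5 members whose longest coding transcript has at least 4000 nt (Lifr, Il6st, Stat3, Bmpr1a and Jak1) all had a higher mean in PFOA, as did 77.8% of 3809 genes of that length. The 5 shorter members (Socs3, Bmp4, Id2, Id3 and Id1) all had a lower mean, as did 67.3% of 7727 genes. Across bands of length, the median log2 fold change of all genes was −0.16 under 1000 nt, −0.091 from 1000 to 2000 nt, −0.013 from 2000 to 4000 nt, 0.058 from 4000 to 8000 nt and 0.13 at 8000 nt or more. Every PFOA library was above every DMSO library for 49.4% of the longest genes, the band of Lifr, and for 27.1% of the band of Jak1 and Bmpr1a. In the band of Id1, 27.7% of genes were below in every PFOA library.

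**Figure D3:**
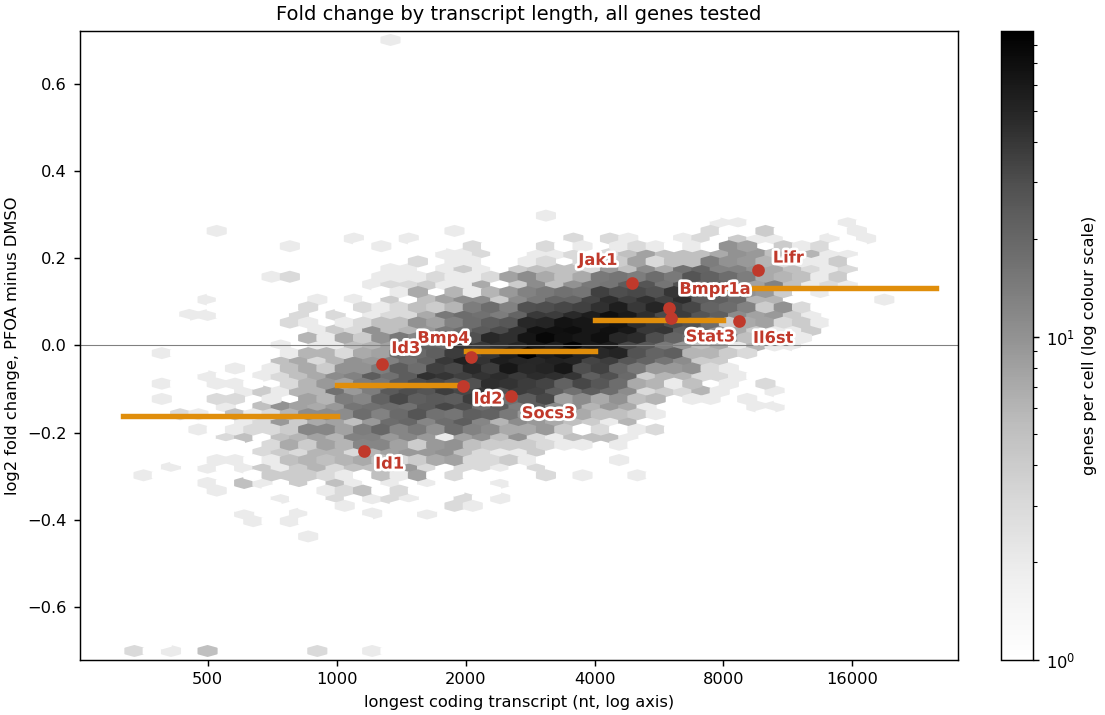
Log2 fold change, PFOA minus DMSO (vertical axis), against the length of the longest coding transcript in nt (horizontal log axis) for all genes tested with a known length, as shaded counts, with values beyond 0.7 drawn at the edge. Orange lines are the medians of 5 length bands, from −0.16 to 0.13, and red points are the 10 members, which lie within the cloud of genes of their length.

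PFOA 1 was the library farthest along this trend. In the 1000 to 2000 nt band that holds the Id genes, the median relative to the DMSO mean was −0.14, −0.064 and −0.065 in PFOA 1 to 3 and 0.017, 0.010 and −0.027 in DMSO 1 to 3. On the same log2 scale Id1 was at −0.44, −0.21 and −0.067 in PFOA and 0.053, −0.011 and −0.042 in DMSO. PFOA 1 was the lowest PFOA library for 5 of 5 shorter members and the highest for 3 of 5 longer ones.

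After each library's trend on longest transcript length was taken out, no member passed (0 of 10) and all 10 members overlapped between the groups. Lifr then had a log2 fold change of 0.051 (limma adjusted p = 0.783), Bmpr1a 0.015 (0.898) and Jak1 0.098 (95% confidence interval −0.010 to 0.21, 0.402). Id1 was at −0.12 (95% confidence interval −0.26 to 0.025, limma adjusted p = 0.443) and Id3 at 0.071 (−0.035 to 0.18, 0.529). The median coding length is shorter for genes with annotated fragments (1346.5 nt for Bmpr1a). Removing a trend on it gave Lifr 0.16 (95% confidence interval 0.013 to 0.30, limma adjusted p = 0.277). Bmpr1a was then at 0.14 (0.039 to 0.24, 0.202), above its 0.085 before correction. Jak1 was at 0.14 (0.022 to 0.26, 0.242) and Id1 at −0.17 (−0.33 to −0.012, 0.283). These intervals excluded 0, so the result of a length correction depended on the length used.

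**Figure D4:**
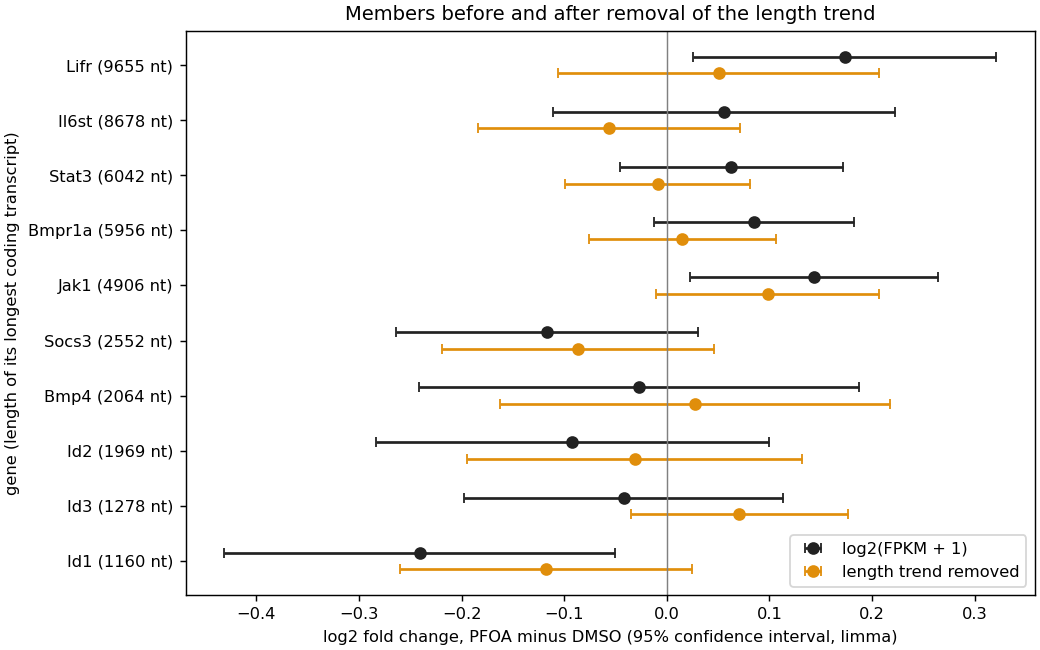
Log2 fold change, PFOA minus DMSO, with its 95% confidence interval (horizontal axis) for the 10 members in order of transcript length (vertical axis), on log2(FPKM + 1) in black and with the longest transcript length trend removed in orange. Id1 goes with −0.24 before and −0.12 after, Lifr with 0.17 before and 0.051 after, and every orange interval includes 0.

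Genes of the wider pathways were read from the same fit, in which 5651 of the 11876 genes tested were higher in PFOA and 6225 lower. Of 105 genes on 11 lists, which overlap in part, 104 were in the table and 81 were tested. None of the 81 passed (0 higher, 0 lower). By unadjusted p under 0.05, 8 of the 81 were higher and 5 lower, where 8.56% and 12.5% of all genes were. The median log2 fold change was −0.00074, beside −0.0065 over all genes tested. Every PFOA library was above every DMSO library for 9 of the 81 and below for 5, where 13.5% and 13.7% of all genes were, so neither share exceeded the background.

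Among gp130 cytokines, 4 of 9 were tested, with 1 higher and 3 lower in the mean. Their median log2 fold change of −0.091 became 0.027 with the longest transcript length trend removed. Lif itself was low, at 2.28 ± 0.029 FPKM in PFOA and 2.09 ± 0.14 FPKM in DMSO. Cardiotrophin 1 (Ctf1) was at 3.34 ± 0.93 FPKM in PFOA and 3.64 ± 0.015 FPKM in DMSO. Il6 was listed at 0 in 5 of 6 libraries, and Il11, Il27, Clcf1 and Osm did not exceed 0.60 FPKM.

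Receptors of the same family gave 3 higher and 2 lower of 5 tested by log2 fold change, with Cntfr counted as lower at −0.00074. The interleukin 11 receptor chain Il11ra1 was at 3.83 ± 0.93 FPKM in PFOA and 4.58 ± 0.15 FPKM in DMSO, the interleukin 6 receptor Il6ra at 1.79 ± 0.19 and 1.56 ± 0.16, and Cntfr, for ciliary neurotrophic factor, at 3.71 ± 0.21 and 3.71 ± 0.10. Osmr, the receptor chain for oncostatin M, did not exceed 0.29 FPKM.

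For JAK kinases and STAT factors, 7 of 11 tested genes were higher in PFOA by log2 fold change and 4 lower. Stat5a counts as lower at −0.00040, though its mean FPKM was the same in both groups. The list median of 0.039 became −0.0089 with the longest transcript length trend removed. Stat6, of interleukin 4 signalling, was at 11.2 ± 0.58 FPKM in PFOA and 11.96 ± 0.51 FPKM in DMSO, and the kinase Tyk2 at 11.9 ± 0.37 and 11.3 ± 0.49. Among the inhibitors and phosphatases 7 of 15 were higher and 8 lower. Their median was −0.026, and −0.037 with the longest transcript length trend removed. Of the PIAS proteins, which bind and restrain STATs, Pias4 was at 39.2 ± 1.2 FPKM in PFOA and 42.4 ± 1.6 FPKM in DMSO and Pias1 at 12.9 ± 0.35 and 11.7 ± 0.73. Socs5, a relative of Socs3, was at 3.50 ± 0.28 FPKM in PFOA and 3.93 ± 0.15 FPKM in DMSO.

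The STAT3 targets of mouse stem cells did not share a direction, with 6 of 13 higher and 7 lower and a median of −0.014. Klf5, a Krüppel-like factor of naive pluripotency, had the smallest p of this list, at 58.50, 58.25 and 58.46 FPKM in PFOA and 51.91, 52.12 and 50.36 FPKM in DMSO. The PFOA libraries lay close together and above all DMSO libraries (log2 fold change 0.18, SE 0.034, limma adjusted p = 0.110), and the value was 0.18 with the longest transcript length trend removed as well (limma adjusted p = 0.191). Tfcp2l1, another transcription factor downstream of STAT3, was at 26.9 ± 2.1 FPKM in PFOA and 23.0 ± 0.96 FPKM in DMSO (log2 fold change 0.22, limma adjusted p = 0.134). With the length trend removed its log2 fold change was 0.10. Junb, an AP-1 subunit, was at 18.7 ± 0.99 FPKM in PFOA and 20.1 ± 0.84 FPKM in DMSO, so that Socs3 and Junb had lower and Klf5 and Tfcp2l1 higher means in PFOA.

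On the BMP side, receptors gave 5 of 5 tested genes with a higher mean in PFOA, with a median of 0.085 and a median transcript of 5686 nt. That median was 0.019 with the longest transcript length trend removed. The type II receptor Bmpr2 was at 3.18 ± 0.13 FPKM in PFOA and 2.70 ± 0.16 FPKM in DMSO, without overlap (limma adjusted p = 0.194), and its longest transcript has 12899 nt. The activin receptors were at 8.99 ± 0.85 FPKM in PFOA and 8.18 ± 0.53 FPKM in DMSO for Acvr2b and at 2.71 ± 0.16 and 2.51 ± 0.14 for Acvr2a. Bmpr1b, the other type I receptor of this name, did not exceed 0.11 FPKM, so Bmpr1a was the main transcript of the pair.

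Of 14 BMP and related ligands, 5 were tested, with 1 higher and 4 lower. Gdf3, a relative of the BMPs made by pluripotent cells, was at 69.9 ± 3.7 FPKM in PFOA and 76.9 ± 4.8 FPKM in DMSO (limma adjusted p = 0.222). Bmp8b was at 4.78 ± 0.51 FPKM in PFOA and 4.09 ± 0.41 FPKM in DMSO, and Bmp2 at 0.993 ± 0.20 and 1.08 ± 0.10. SMADs and the SMURF ligases that degrade them gave 6 of 7 higher and 1 lower, with a median of 0.057 that became −0.0014 with the length trend removed. Smad4, the shared partner SMAD, was at 14.2 ± 0.30 FPKM in PFOA and 13.7 ± 0.90 FPKM in DMSO, the signalling Smad5 at 6.96 ± 0.093 and 6.58 ± 0.60, and the ligase Smurf2 at 11.2 ± 0.48 and 10.7 ± 0.26.

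The antagonists gave 1 higher and 5 lower of 6 tested, with a median of −0.080. That median was −0.12 with the longest transcript length trend removed, so it moved away from 0. Nbl1 was at 1.29, 1.88 and 1.71 FPKM in PFOA and 2.70, 2.2 and 1.71 FPKM in DMSO. The NODAL and BMP inhibitor Dand5 was at 0.853 ± 0.34 and 1.27 ± 0.43, and the decoy receptor Bambi was at 7.22 ± 0.66 and 7.67 ± 0.22. Noggin (Nog) and chordin (Chrd) did not exceed 0.76 FPKM in any library.

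E proteins are the partners that ID proteins hold, and their means lay in both directions. Tcf3, which encodes E2A, was at 66.43, 73.65 and 71.12 FPKM in PFOA and 79.20, 74.56 and 76.99 FPKM in DMSO, without overlap (log2 fold change −0.13, limma adjusted p = 0.184). Tcf12 was at 14.77, 15.03 and 14.27 FPKM in PFOA and 12.95, 13.52 and 13.66 FPKM in DMSO, also without overlap (log2 fold change 0.13, limma adjusted p = 0.175). Tcf3 has a longest transcript of 2950 nt and Tcf12 one of 6299 nt. After length correction the log2 fold change of Tcf3 was −0.11 and that of Tcf12 was 0.049. Tcf4 was at 5.03 ± 0.48 FPKM in PFOA and 4.59 ± 0.015 FPKM in DMSO.

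BMP targets, a list that holds the Id genes, gave 2 higher and 10 lower of 12 tested. Of all 11876 genes tested, 6225 were lower. The median longest transcript of the list was 2587.5 nt. In the bands from 1000 to 2000 nt and from 2000 to 4000 nt, 81.9% and 57.0% of genes were lower. The median log2 fold change of the list was −0.084, and it was −0.073 with the longest transcript length trend removed. Hey1, a transcriptional repressor that is a target of the Notch and BMP pathways, was at 1.37 ± 0.21 FPKM in PFOA and 1.61 ± 0.076 FPKM in DMSO. The homeobox genes were at 4.46 ± 0.91 FPKM in PFOA and 5.61 ± 1.7 FPKM in DMSO for Msx1 and at 13.7 ± 0.74 and 15.1 ± 2.5 for Msx2, whose groups overlapped. Of the 12, Id1 alone had an unadjusted p under 0.05, where 12.5% of all genes had one and were lower.

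**Figure D5:**
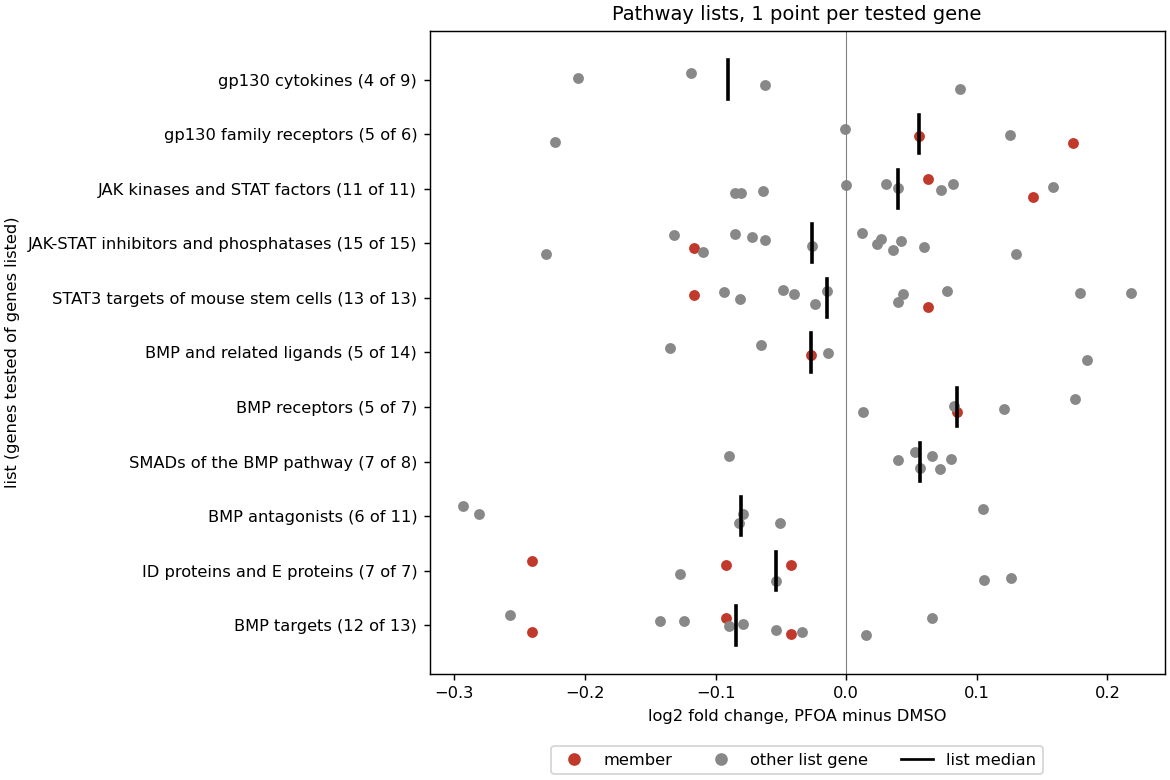
Log2 fold change, PFOA minus DMSO (horizontal axis), of each tested gene on the 11 pathway lists (vertical axis, with genes tested of genes listed), with members in red, other genes in grey and list medians as black lines. The medians range from −0.091 for gp130 cytokines to 0.085 for BMP receptors, and no gene shown passed the test.

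The genes whose level followed the Id genes most closely over the 6 libraries, by Pearson's r with the mean log2 level of Id1, Id2 and Id3, were Ccs (r = 0.995), Pla2g1b (0.989) and Brms1 (0.988). Ccs, the copper chaperone of superoxide dismutase, was at 22.84, 25.72 and 27.14 FPKM in PFOA and 27.06, 26.73 and 25.89 FPKM in DMSO, with PFOA 1 lowest. Those most like Socs3 were Rpp14 (0.995), Cox14 (0.992) and Calr (0.990), each highest in DMSO 1. Of 6370 genes searched with a mean of at least 10 FPKM, 285 reached an r of 0.9 with the Id genes and 103 with Socs3. With 6 libraries that share their length trend, these likenesses are a description only.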

How the data were processed

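RNA of morula-like aggregates was sequenced in 3 PFOA and 3 DMSO libraries. Per the labels' protocols, polyadenylated RNA was enriched and sequenced on a BGISEQ-500. The authors deposited FPKM to 2 decimals with 1 column per library, matched here by the library titles. HISAT2 2.0.4, Bowtie2 2.2.5 and GRCm39 are named per the submitters' processing notes, while the sources used here do not give the counting tool, annotation or strand setting. FPKM depends on the library total and on the length used, so a bias by length differs between genes.

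Members and lists were chosen with earlier results of these data known. The scale was log2(FPKM + 1), for genes averaging at least 1 FPKM. Groups were compared with limma 3.58.1 in R 4.3.3, with an intensity trend, two-sided, with Benjamini-Hochberg adjusted p under 0.05 called. A fold change on that scale understates that of low genes. Lengths came from GENCODE M21 transcripts, which matched 17622 of 18388 symbols, and trends were removed per library by lowess (span 0.3). Of the members at most 0.356% of 50-nt words occur in other genes. Among 200 low values of short genes, 60.0% lay within 0.15 of a whole multiple of the gene's lowest, so read counts could not be rebuilt, sequencing depth is unknown and no count model was used. The named genes are all members, the 3 genes of smallest p per list and the 3 most like the Id genes and Socs3, apart from some list genes that are not reported here. The fit was tested on simulated data, where it recovered 44.3% of genes changed 1.25-fold and 92.2% of those changed 1.5-fold. Of the calls made there, 7.13% and 6.4% were false. The simulated spread held no length trend. Alternatives covered the pseudocount, the filter, normalization, the variance model, transcript length, a replicate block and each library left out.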

Additional observations from a re-analysis of the deposited data

How the results depend on the processing

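In all 17 alternatives 0 members were called. Of 169 member values under alternatives, 158 kept their sign, as did 533 of 545 for other list genes. The count of genes called, 1 in the reported fit, was 0 without the filter, without the intensity trend, with the longest transcript length trend removed and with the replicate block, 2 with library weights, and 0 to 94 with 1 library left out (94 without PFOA 2, 52 without DMSO 3, 0 without DMSO 1, DMSO 2 or PFOA 3). Median list values moved by more than the spread between replicates in 23 of 203 cases. The cause of these changes was not tested. Whether the replicate numbers pair the libraries is not given in the sources used here. Deviations of same-numbered libraries correlated at −0.11, −0.0095 and −0.14, and those of differently numbered libraries at −0.065 to 0.15. With the replicate block 0 genes were called. With 3 libraries per group and a length trend in each library, these values cannot decide whether libraries were paired. With a mean of at least 5 FPKM as the filter, Lifr and the gp130 cytokines gave no value. The depth behind low genes such as Lifr is unknown.

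With the longest transcript length trend removed, the sign turned for Il6st (−0.056), Stat3 (−0.0089), Bmp4 (0.028), Id3 (0.071), Cntfr (0.058), Smad5 (−0.011), Smurf2 (−0.0014) and Tcf4 (−0.0054). With the median transcript length trend removed it turned for Id3 (0.019) and Cntfr (0.023). Quantile normalization turned Id3 (0.037) and Cntfr (0.0026). Cntfr, at −0.00074 in the reported fit, also turned with median centring (0.0040) and library weights (0.020). Leaving out 1 library gave Il6st −0.011 to 0.091, Bmp4 −0.12 to 0.038, Id3 −0.096 to 0.042, Ctf1 −0.28 to 0.016 and Cntfr −0.037 to 0.026 on the log2 scale. The other members kept their sign, with Lifr at 0.15 to 0.21, Jak1 0.12 to 0.19, Stat3 0.033 to 0.091, Socs3 −0.16 to −0.053, Bmpr1a 0.068 to 0.11, Id1 −0.33 to −0.14 and Id2 −0.18 to −0.0021.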
